A study of Mus musculus with 9 samples.

Results

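The genes described here encode 9 transporters that carry large neutral amino acids, small neutral amino acids and cystine across cell membranes. They were chosen by name, as Slc3a2, Slc7a5, Slc7a8, Slc7a6, Slc7a10, Slc7a11, Slc38a1, Slc38a2 and Slc1a5, and all 9 were found among the 35397 genes of the expression table. RNA was sequenced from retinas of db/db mice (4 libraries, numbered 1, 3, 4 and 5) and of wild-type mice (5 libraries, numbered 1 to 5). The db/db mouse carries a mutation of the leptin receptor in all its tissues and becomes obese and diabetic. The labels give the genotype and the tissue, but no age, sex, strain background or treatment, and do not state that every library is from an animal of its own. The p-values therefore measure the spread between these libraries, which may be technical.

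Leucine, isoleucine, valine, phenylalanine and other large neutral amino acids enter cells mainly through exchangers made of a heavy chain, the product of Slc3a2, joined by a disulfide bond to a light chain of the Slc7 family. The exchangers swap one amino acid for another, so sodium-coupled carriers such as those of Slc38a1, Slc38a2 and Slc1a5 supply the glutamine and small neutral amino acids that leave in return. In the retina the pair of Slc7a5 and Slc3a2 is known from the endothelium of the inner blood-retinal barrier, and the cystine carrier of Slc7a11 is known for feeding glutathione synthesis in Muller glia. The series title names Bcat1, which transfers the amino group of leucine, isoleucine and valine once they are inside the cell. Bcat1 averaged 26.8 ± 2.07 FPKM in db/db libraries (SD, n = 4) and 27.1 ± 1.89 FPKM in wild-type libraries (SD, n = 5), with a log2 change of -0.01 (limma adjusted p = 0.929).

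The table gave FPKM, which are read counts scaled by exon length and by library size, and the depth read back from its steps was 36.7 to 48.2 M reads per library. The FPKM of all genes summed to 311179 in db/db 1 and to 252832 to 268139 in the other libraries. The retina label fitted the markers, since 6 cone markers summed to 477 to 519 FPKM in db/db libraries and to 496 to 555 FPKM in wild-type libraries. Some libraries also held RNA of other tissues. The summed FPKM of 9 pigment epithelium and melanocyte markers ran from 87.4 to 422 in db/db libraries and from 122 to 196 in wild-type libraries. The sum of 5 skeletal muscle markers ran from 3.54 to 138 in db/db libraries and from 1.66 to 2.37 in wild-type libraries. The library db/db 1 was the highest for both, and no marker of either list was at 0 in every library. It was also the highest for ganglion cell markers (422, against 271 to 309 in wild-type libraries), red cell markers (72.6, against 14.6 to 26.1) and horizontal cell markers (69.1, against 45.6 to 47.7), and the lowest for amacrine cell markers (140, against 179 to 185). The horizontal cell sum was above the wild-type range in all db/db libraries, with 49.3 FPKM as its lowest, and so was the muscle sum. Among single genes whose mean reached 1 FPKM, 5.20% separated in that direction. Of the 5 horizontal cell markers, 3 had such a mean. In the comparison described below, 0 of them passed with all 9 libraries and 1 passed, higher, without db/db 1. The sums were not tested. Relative to the wild-type mean, the deviation of genes in each library followed GC content with a correlation across genes of 0.184, 0.196, 0.287 and 0.498 in db/db 1, 3, 4 and 5, against -0.121 to 0.128 in the wild-type libraries. The wild-type libraries form that mean, so their deviations balance out for each gene, while those of db/db libraries hold any group difference. A GC tilt shared by the wild-type libraries would not be seen in this way. The part of these differences in the results below was not tested, and values without db/db 1 are given beside each tested member.

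The transporters were expressed over a wide range. On the FPKM scale, which is per length, Slc3a2 was the highest at 41.4 ± 6.48 FPKM (SD, n = 9), and its lowest library lay above the highest value of any other member. Slc38a1 (15.6 ± 2.33 FPKM), Slc38a2 (14.7 ± 2.37), Slc7a5 (13.2 ± 1.49), Slc7a8 (11.8 ± 1.01) and Slc7a6 (9.73 ± 0.883) followed, each overlapping the next in range over the 9 libraries. Within each library, however, Slc7a8 was above Slc7a6 in 9 of 9. Slc1a5 stood apart below them at 4.17 ± 0.258 FPKM. Slc7a10 at 1.10 ± 0.470 FPKM and Slc7a11 at 0.433 ± 0.150 FPKM were the lowest and overlapped each other in range. Among the 14588 genes tested, those whose mean over the 9 libraries reached 1 FPKM, the level of Slc3a2 was above 93.7% and that of Slc7a10 above 2.15%. The order in the middle depends on the length used, since the annotated exons of Slc38a1 add up to 2.37 times its longest transcript. With the longest transcript as the length, an alternative chosen after seeing the data, Slc38a1 averaged 36.9, Slc38a2 21.2, Slc7a8 14.5 and Slc7a5 13.9 on the same scale, and Slc3a2 remained the highest at 52.0.

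**Figure D1:**
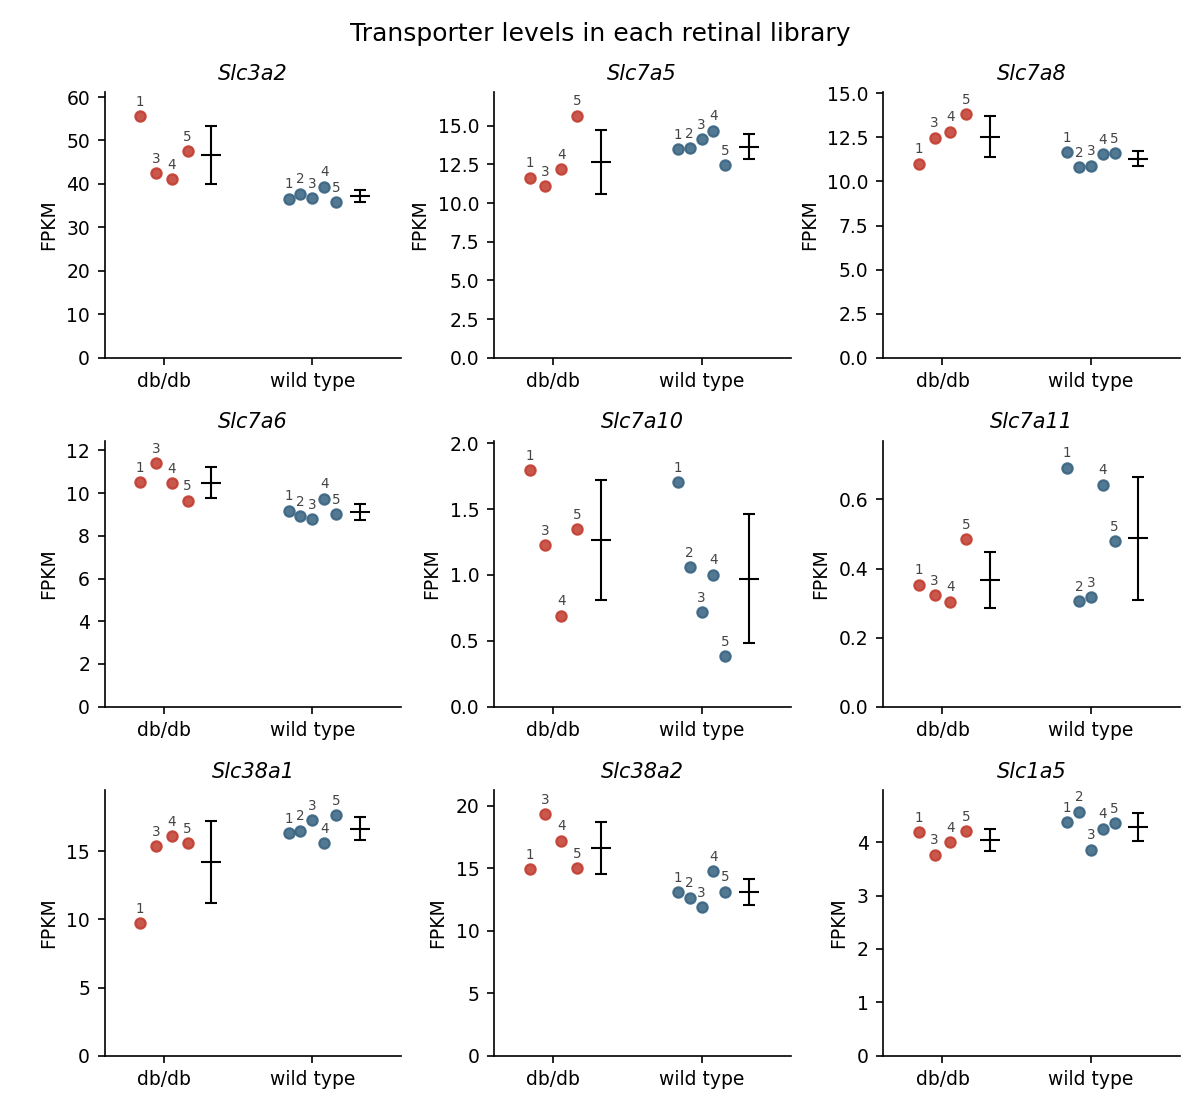
Each panel shows 1 transporter, with its FPKM on the vertical axis from 0, db/db libraries in red and wild-type libraries in blue, and the library number above each point. Black bars give the mean and SD of each group (n = 4 and n = 5). The 4 db/db points of Slc3a2 and of Slc38a2 lie above all wild-type points, and the db/db 1 point of Slc38a1 lies far below the other libraries.

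The design set the 4 db/db libraries against the 5 wild-type libraries. None of the 8 members tested passed the threshold of an adjusted p of 0.05 with all 9 libraries, by limma on log2(FPKM + 1) with Benjamini-Hochberg adjustment over the 14588 genes. Over all genes tested 0.500% passed, 0.233% with higher and 0.267% with lower db/db values. At an unadjusted p of 0.05, 3 of the 8 were higher in db/db (Slc3a2, Slc38a2 and Slc7a6) and 0 lower, where 9.36% of all tested genes were higher. The 9 values of 2 members, Slc3a2 and Slc38a2, did not overlap between the groups, with the db/db values above. Among all tested genes 5.20% separated in that direction and 6.38% in the other. The median log2 change of the 8 members was 0.16, beside 0.0035 over all tested genes. With db/db 1 left out, 3 of the 8 members passed, all higher in db/db (Slc38a2, Slc3a2 and Slc7a8), where 4.72% of all tested genes passed higher and 5.84% lower. With the GC correction as well, 2 members passed, both higher (Slc38a2 and Slc7a6), where 4.85% of all tested genes did, 2.55% higher and 2.30% lower. With array weights, which count a library less the farther it lies from its group, the same 3 members passed as without db/db 1, all higher, where 8.27% of all tested genes did, 3.77% higher and 4.50% lower. Without both db/db 1 and db/db 4, Slc3a2 passed, higher, where 3.72% of all tested genes did, 1.98% higher and 1.74% lower. Slc7a11 lay below the filter on low values and was not among the 8.

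Slc3a2, the heavy chain that brings its light chains to the cell surface, lies on chromosome 19 (ENSMUSG00000010095, 8706882 to 8723369, minus strand, mm10). It was listed at 55.6, 42.4, 41.1 and 47.5 FPKM in db/db 1, 3, 4 and 5, and at 36.6, 37.7, 36.7, 39.4 and 35.7 FPKM in wild type 1 to 5. Every db/db library was above every wild-type library, with db/db 1 the highest, and the db/db values were the more spread. The means were 46.7 ± 6.59 FPKM in db/db (SD, n = 4) and 37.2 ± 1.38 FPKM in wild type (SD, n = 5), a ratio of 1.25. Its log2 change was 0.31 (SE 0.09, limma adjusted p = 0.112), and on the log2(FPKM + 1) scale the 95% interval of the fold ran from 1.08 to 1.42. Without db/db 1 the change was 0.22 and passed (adjusted p = 0.0356), and with a correction for GC content as well it was 0.18 and did not (adjusted p = 0.0548). Scaling to equal sums gave a change of 0.28 and quantile normalization 0.20. Over 23 alternatives its adjusted p ran from 0.0356 to 0.441 and the sign was always positive.

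Slc7a5, the LAT1 light chain that takes up leucine, phenylalanine and other large neutral amino acids, lies on chromosome 8 (ENSMUSG00000040010, 121881150 to 121907694, minus strand). Its FPKM were 11.6, 11.1, 12.2 and 15.7 in db/db 1, 3, 4 and 5, and 13.5, 13.5, 14.1, 14.7 and 12.5 in wild type 1 to 5. The libraries db/db 1, 3 and 4 were below all wild-type libraries and db/db 5 was above them all. The fitted log2 change was -0.11 (SE 0.10, limma adjusted p = 0.536), and the fold interval was 0.796 to 1.07. Without db/db 5, the library with the strongest relation to GC content, the change was -0.21 (adjusted p = 0.225). The transcript of Slc7a5 has a GC content of 56.3%, and with the GC correction over all 9 libraries the change was -0.23 (adjusted p = 0.332). It was smaller without db/db 3 (-0.06), without db/db 1 (-0.08) and without both db/db 1 and db/db 4 (-0.04), and it passed under none of these settings. The 11 markers of endothelium, the cell type where LAT1 is best known in the retina, summed to 34.1 to 45.7 FPKM in db/db libraries and to 35.7 to 41.2 FPKM in wild-type libraries. The highest sum was that of db/db 1. Without db/db 1, 2 of these markers passed lower and 0 higher, where 5.84% of all tested genes passed lower and 4.72% higher. Fewer cells of a type and less RNA per cell cannot be told apart in such bulk samples.

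Slc7a8 encodes LAT2, a light chain with a broader range of neutral substrates (ENSMUSG00000022180, chromosome 14, 54722209 to 54781946, minus strand). It had 11.01, 12.5, 12.8 and 13.8 FPKM in db/db 1, 3, 4 and 5, and 11.7, 10.8, 10.9, 11.5 and 11.6 FPKM in wild type 1 to 5. The db/db 1 value lay within the wild-type range and the other 3 db/db values above it. The log2 change was 0.13 (SE 0.07, limma adjusted p = 0.316; fold interval 0.986 to 1.22) with all libraries. Without db/db 1 it was 0.19 and passed (adjusted p = 0.0383), at 13.0 ± 0.687 FPKM in db/db (SD, n = 3) and 11.3 ± 0.412 FPKM in wild type (SD, n = 5). With the GC correction as well it was 0.15 (adjusted p = 0.0671). With the GC correction over all 9 libraries it was 0.08 (adjusted p = 0.644), and without db/db 5 it was 0.09 (adjusted p = 0.504).

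Slc7a6, the light chain that exchanges cationic for neutral amino acids, lies on chromosome 8 (ENSMUSG00000031904, 106168857 to 106198706, plus strand). It stood at 10.5, 11.4, 10.5 and 9.64 FPKM in db/db 1, 3, 4 and 5, and at 9.18, 8.92, 8.78, 9.73 and 9.02 FPKM in wild type 1 to 5. The groups met only at db/db 5, which was just below wild type 4. The log2 change was 0.18 (SE 0.06, limma adjusted p = 0.156; fold interval 1.03 to 1.25). Without db/db 1 it was again 0.18 (adjusted p = 0.0725), and with the GC correction as well it was 0.22 and passed (adjusted p = 0.0370).

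The heavy chain can be set against its light chains. The summed FPKM of the 6 light chains Slc7a5, Slc7a6, Slc7a7, Slc7a8, Slc7a10 and Slc7a11 was 38.8 ± 2.42 in db/db (SD, n = 4) and 37.0 ± 1.61 in wild type (SD, n = 5), and the ranges overlapped. The ratio of Slc3a2 to that sum was 1.52, 1.11, 1.08 and 1.12 in db/db 1, 3, 4 and 5, and 0.956, 1.05, 1.01, 1.004 and 1.01 in wild type 1 to 5. The db/db ratios were thus above all wild-type ratios, narrowly so except in db/db 1. Within the sum, Slc7a5 made up 32.5 ± 3.36% in db/db and 36.9 ± 1.65% in wild type, while Slc7a8 made up 32.3 ± 1.61% and Slc7a6 27.2 ± 3.06% in db/db, against 30.5 ± 1.25% and 24.6 ± 0.574% in wild type. These ratios combine members whose values were already given, so they carry no test of their own.

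**Figure D2:**
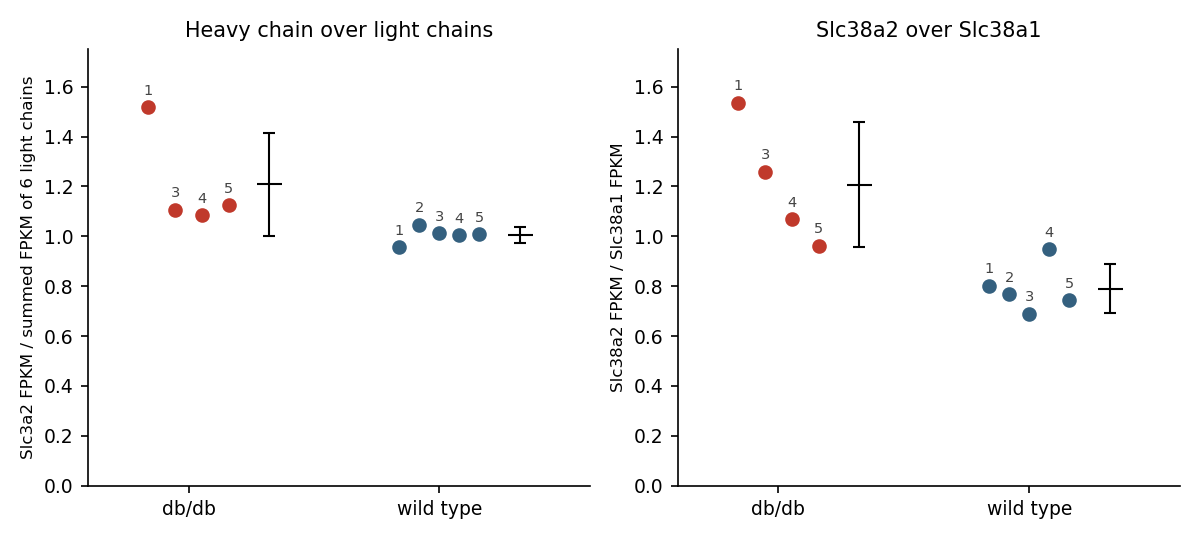
Left, the ratio of Slc3a2 FPKM to the summed FPKM of 6 light chains in each library. Right, the ratio of Slc38a2 FPKM to Slc38a1 FPKM. Points are libraries with their numbers, db/db in red and wild type in blue, and black bars give the mean and SD. In both panels the 4 db/db points lie above the 5 wild-type points, with db/db 1 the highest.

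Slc7a10 and Slc7a11 had the lowest FPKM of the members, and their SD in wild-type libraries was 50.2% and 36.8% of the mean. Slc7a10 encodes a light chain that exchanges small neutral amino acids, glycine and D-serine among them (ENSMUSG00000030495, chromosome 7, 35186385 to 35201114, plus strand). It had 1.80, 1.22, 0.690 and 1.35 FPKM in db/db 1, 3, 4 and 5, and 1.70, 1.06, 0.717, 1.002 and 0.384 FPKM in wild type 1 to 5. The groups overlapped almost fully, on 60 to 176 recovered reads in db/db libraries and 37 to 173 in wild-type libraries. Its log2 change was 0.21 (SE 0.20, limma adjusted p = 0.577), and the fold interval of 0.850 to 1.58 was the widest of the 8. That fold is of FPKM + 1, so it does not bound the ratio of FPKM, which was 1.30 for the means. The change was 0.10 without db/db 1, 0.09 without wild type 5, and 0.34 and 0.33 without db/db 4 and without wild type 1. It was 0.09 with the GC correction and 0.01 with that correction and without db/db 1. A pseudocount of 0.1 FPKM gave 0.41 and limma-voom on the recovered reads 0.46, and it passed under none of these settings. Lrp3, at a mean of 11.2 FPKM, overlaps it on the opposite strand and shares 377 of its 2111 exon bases. Whether reads were counted by strand is not stated, so reads from the shared bases could be of either gene.

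Slc7a11 encodes xCT, which takes up cystine in exchange for glutamate (ENSMUSG00000027737, chromosome 3, 49892526 to 50443614, minus strand). It was listed at 0.354, 0.323, 0.304 and 0.485 FPKM in db/db 1, 3, 4 and 5, and at 0.692, 0.306, 0.317, 0.643 and 0.479 FPKM in wild type 1 to 5. The 3 highest db/db values lay inside the wild-type range, whose own extremes differed by more than the groups did. Its long exons gave 174 to 247 recovered reads in db/db libraries and 183 to 464 in wild-type libraries. In the fit without the filter the log2 change was -0.12 (SE 0.09, limma adjusted p = 0.667), with a fold interval of 0.799 to 1.07. That fold is of FPKM + 1, where the added 1 exceeds the level of the gene, so it does not bound the ratio of FPKM. The mean FPKM was 0.366 in db/db and 0.487 in wild type, a ratio of 0.751.

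The promoter of Slc7a11 is shown because it is a textbook target of ATF4, the transcription factor of the amino acid response. The 250 bases before its start (chr3:50443614-50443863, minus strand, RefSeq on GRCm38.p6, the same assembly as mm10) hold 2 matches of the motif TGATGNAA, 1 on each strand, given in capitals.
Slc7a11: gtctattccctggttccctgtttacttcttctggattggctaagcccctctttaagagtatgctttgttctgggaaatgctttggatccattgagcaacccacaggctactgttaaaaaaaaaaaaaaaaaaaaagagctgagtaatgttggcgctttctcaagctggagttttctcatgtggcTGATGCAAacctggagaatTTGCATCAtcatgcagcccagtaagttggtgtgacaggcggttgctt
The windows searched ran from 250 bases before to 50 after each start, on both strands. At least 1 match occurred in 3.97% of the 32851 windows of all genes and at least 2 in 0.0700%. Of the members, 6 had a window in the table, and among these only Slc7a11 held the motif. Slc7a5, Slc38a1 and Slc1a5 had no window. Bases outside the windows were not searched, so a gene without a match here may hold the motif elsewhere. The motif TGACNNNGC, that of antioxidant response elements bound by NRF2, occurred in 12.4% of all windows. It was found in the windows of Slc38a2 and Slc7a6 and not in those of Slc3a2, Slc7a8, Slc7a10 or Slc7a11, and the E-box CACGTG, in 7.15% of all windows, was in none of the 6. No match overlapped another, and a match is a description of letters and not a binding site.

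Among the sodium-coupled carriers, Slc38a2 and Slc38a1 are neighbours on the minus strand of chromosome 15, with 44478 bases between them. Slc38a2 encodes SNAT2, a carrier of glutamine, alanine and other small neutral amino acids that cells are known to induce when amino acids are short (ENSMUSG00000022462, 96687392 to 96699730). It had 14.9, 19.3, 17.2 and 14.99 FPKM in db/db 1, 3, 4 and 5, and 13.1, 12.7, 11.9, 14.8 and 13.1 FPKM in wild type 1 to 5. All db/db values were above all wild-type values, though db/db 1 and db/db 5 were above wild type 4 by little. The means were 16.6 ± 2.10 FPKM in db/db (SD, n = 4) and 13.1 ± 1.05 FPKM in wild type (SD, n = 5), a ratio of 1.27. The log2 change was 0.31 (SE 0.09, limma adjusted p = 0.112; fold interval 1.08 to 1.43). Without db/db 1 it was 0.36 and passed (adjusted p = 0.0315), and with the GC correction as well it was 0.44 and passed (adjusted p = 0.0228). Its transcript, with a GC content of 44.7%, is poorer in GC than that of Slc3a2 (53.4%). The 2 promoters are set side by side because both genes separated the groups.
The 250 bases before the start of Slc38a2 are at chr15:96699729-96699978 and those of Slc3a2 at chr19:8713898-8714147, both on the minus strand (RefSeq, GRCm38.p6), with the match of TGACNNNGC in capitals. The RefSeq start of Slc3a2 lies inside the span annotated for the gene.
Slc38a2: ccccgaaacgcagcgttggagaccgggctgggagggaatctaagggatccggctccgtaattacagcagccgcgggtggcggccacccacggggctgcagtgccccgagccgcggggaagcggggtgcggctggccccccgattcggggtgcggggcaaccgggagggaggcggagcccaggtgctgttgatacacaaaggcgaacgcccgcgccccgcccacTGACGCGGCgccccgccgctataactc
Slc3a2: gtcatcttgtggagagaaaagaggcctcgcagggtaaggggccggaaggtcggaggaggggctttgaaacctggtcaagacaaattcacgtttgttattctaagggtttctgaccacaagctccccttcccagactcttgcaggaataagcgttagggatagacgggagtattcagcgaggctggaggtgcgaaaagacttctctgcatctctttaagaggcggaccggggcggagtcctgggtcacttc

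Slc38a1 encodes SNAT1, the related carrier known for glutamine uptake into neurons (ENSMUSG00000023169, 96571418 to 96642913). It was listed at 9.71, 15.3, 16.1 and 15.57 FPKM in db/db 1, 3, 4 and 5, and at 16.3, 16.5, 17.3, 15.58 and 17.6 FPKM in wild type 1 to 5. The library db/db 1 was far below the other 8, while db/db 4 lay inside the wild-type range and db/db 3 and 5 just below it. The fitted log2 change was -0.24 (SE 0.13, limma adjusted p = 0.341; fold interval 0.690 to 1.04), and without db/db 1 it was -0.08 (adjusted p = 0.279). The ratio of Slc38a2 to Slc38a1 was 1.54, 1.26, 1.07 and 0.963 in db/db 1, 3, 4 and 5, and 0.802, 0.767, 0.690, 0.949 and 0.744 in wild type 1 to 5. It was thus above 1 in 3 of 4 db/db libraries and below 1 in all wild-type libraries, on the FPKM scale. Where the ratio stands relative to 1 depends on the length used. With the longest transcript as the length, Slc38a1 averaged 36.9 and Slc38a2 21.2 over the 9 libraries.

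Slc1a5 encodes ASCT2, a sodium-dependent exchanger of alanine, serine, cysteine and glutamine (ENSMUSG00000001918, chromosome 7, 16781340 to 16798274, plus strand). It had 4.18, 3.76, 3.999 and 4.21 FPKM in db/db 1, 3, 4 and 5, and 4.38, 4.57, 3.86, 4.25 and 4.36 FPKM in wild type 1 to 5. The groups overlapped. Its log2 change was -0.07 (SE 0.06, limma adjusted p = 0.560), with a fold interval of 0.868 to 1.05. Its transcript has a GC content of 56.7%, and with the GC correction the change was -0.19 (adjusted p = 0.211). Without db/db 1 it was -0.08, and it was smaller without db/db 3 (-0.04) and under quantile normalization (-0.04).

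**Figure D3:**
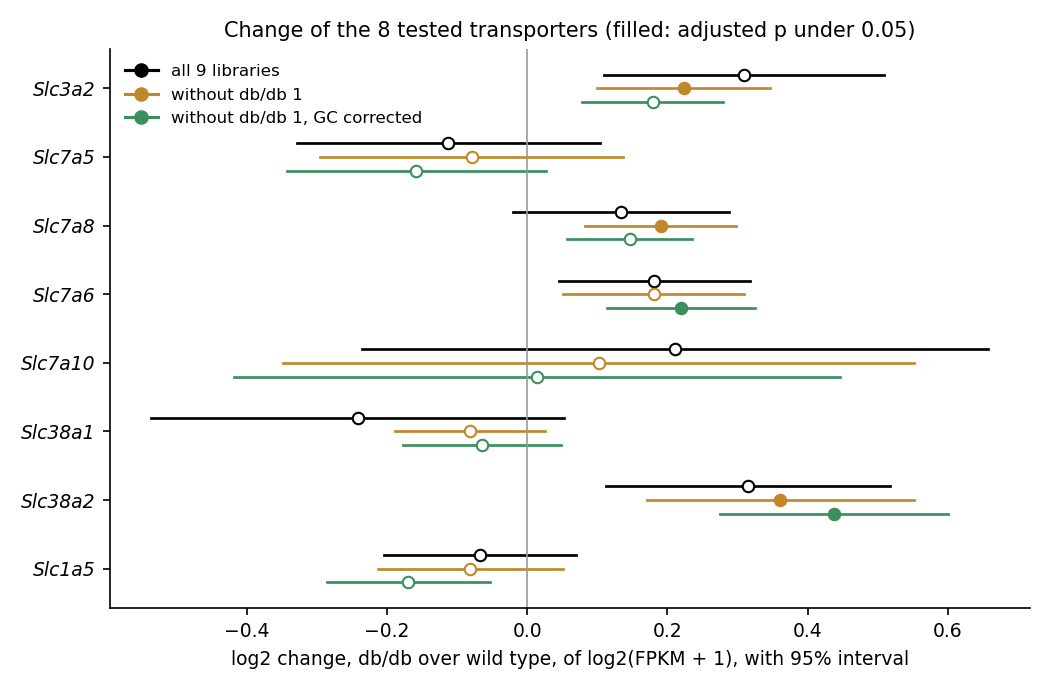
The horizontal axis gives the log2 change of log2(FPKM + 1), db/db over wild type, and each line is its 95% interval. Black is the fit with all 9 libraries, orange the fit without db/db 1, and green the fit without db/db 1 after GC correction. Filled points passed an adjusted p of 0.05. No black point is filled, 3 orange points are (Slc3a2, Slc7a8 and Slc38a2) and 2 green points are (Slc7a6 and Slc38a2).

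The members did not follow a single pattern over the libraries. Of the 28 pairs among the 8 tested members, the most alike were Slc7a6 and Slc38a2, which lie on different chromosomes. Their log2 values had a Pearson correlation of 0.95 and a Spearman correlation of 0.90 over the 9 libraries. The Pearson value was 0.89 without the 2 libraries farthest from the median of Slc7a6, 0.87 for deviations from the group means and 0.99 without db/db 1. Among all protein-coding genes tested, Slc38a2 was also the gene most like Slc7a6, followed by Sema4c (0.95). The least alike pair was Slc3a2 and Slc38a1 (-0.89, and -0.77 without db/db 1). Slc3a2 was most like Klhdc8a (0.99) and Sh2d1a (0.99), with 644 coding genes above 0.9, and Slc38a1 most like Strip2 (0.996) and St8sia1 (0.99), with 1097 above 0.9. In both, the library db/db 1 held the extreme value. By the same measure the nearest genes were Mocs1 and Cyb5d2 (each 0.93) for Slc7a5 and Llgl1 and Adgra2 (each 0.97) for Slc7a8. They were Rab40b and Cpne6 (each 0.93) for Slc7a10, and Iba57 (0.90) and Smim10l2a (0.87) for Slc1a5. Mettl3 (0.95) was the second for Slc38a2. These values are descriptions over 9 libraries that share depth and composition differences, chosen as the highest among all genes compared.

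Other genes that carry, sense or respond to amino acids were read beside the members, from 4 lists. With all 9 libraries 0 genes of these lists passed over all genes tested by limma, at the 0.500% of all genes given above. Among 30 tested of 40 other amino acid transporter genes, 2 were higher and 3 lower at an unadjusted p of 0.05, where 9.36% of all tested genes were higher and 9.91% lower (19.3% together). Their median log2 change was -0.04, beside 0.0035 over all tested genes. Without db/db 1 it was -0.02, beside -0.017 over all tested genes. Those medians of all tested genes also apply to the lists below. Slc1a3, the glutamate carrier of Muller glia, averaged 17.6 ± 2.45 FPKM in db/db (SD, n = 4) and 22.5 ± 1.04 FPKM in wild type (SD, n = 5). Its log2 change was -0.34 (adjusted p = 0.0974; -0.25 and 0.0212 without db/db 1). Slc6a5, the glycine carrier of glycinergic neurons, averaged 4.24 ± 0.933 FPKM in db/db and 5.86 ± 0.178 FPKM in wild type. Its log2 change was -0.41 (adjusted p = 0.106; -0.28 and 0.0254 without db/db 1). For both genes every db/db library was below every wild-type library, which held for 6.38% of all tested genes. Both were named for the smallest p of their list. The 9 markers of Muller glia, Slc1a3 among them, summed to 1397 to 1599 FPKM in db/db libraries and to 1303 to 1415 FPKM in wild-type libraries. Without db/db 1 the 9 markers went both ways, 1 higher and 3 lower past the threshold, where 4.72% of all tested genes passed higher and 5.84% lower. Glul among them, which encodes glutamine synthetase, stood at 689 to 707 FPKM in db/db libraries and at 578 to 642 FPKM in wild-type libraries. Such a separation with higher db/db values held for 5.20% of all tested genes. Rlbp1, also among the 9, overlapped, at 95.9 to 142 FPKM in db/db libraries and 114 to 123 FPKM in wild-type libraries. Neither gene was named by the rule used for the lists.

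In the amino acid response, where ATF4 is translated when amino acids run short and turns on transporter and synthesis genes, 30 of 36 genes were tested. At an unadjusted p of 0.05, 5 of the 30 were higher and 0 lower, beside the same 9.36% and 9.91% of all tested genes. The median log2 change was 0.11, or 0.03 without db/db 1. Nupr1, a stress-induced ATF4 target, had 6.63, 3.34, 2.24 and 3.46 FPKM in db/db 1, 3, 4 and 5, and 1.55, 1.77, 1.40, 1.35 and 1.47 FPKM in wild type 1 to 5. All db/db libraries were above all wild-type libraries, which held for 5.20% of all tested genes, and db/db 1 was the highest. The log2 change of Nupr1 was 0.90 (limma adjusted p = 0.0735), and 0.67 without db/db 1 (adjusted p = 0.0137). Shmt2, the mitochondrial serine hydroxymethyltransferase, averaged 23.0 ± 1.96 FPKM in db/db and 19.7 ± 1.42 FPKM in wild type (log2 change 0.21, adjusted p = 0.179; 0.25 and 0.0454 without db/db 1). Atf4 itself, named after its values were seen, was listed at 172, 112, 110 and 109 FPKM in db/db 1, 3, 4 and 5, and at 95.8 to 120 FPKM in wild-type libraries. Only db/db 1 lay above the wild-type range (adjusted p = 0.332).

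Of 26 genes of cystine and glutathione use 24 were tested, with 2 higher and 1 lower at an unadjusted p of 0.05, a smaller share than the 19.3% of all tested genes. The median log2 change was 0.06, or 0.04 without db/db 1. Nqo1, a quinone reductase and NRF2 target, averaged 4.36 ± 1.03 FPKM in db/db and 2.65 ± 0.379 FPKM in wild type (log2 change 0.54, limma adjusted p = 0.0749; 0.43 and 0.0342 without db/db 1). Gclm, the modifier subunit of the enzyme that starts glutathione synthesis, averaged 4.11 ± 0.369 FPKM in db/db and 5.01 ± 0.219 FPKM in wild type (log2 change -0.24, adjusted p = 0.104; -0.27 and 0.0284 without db/db 1). Both separated the groups, in opposite directions, and both were named for the smallest p of their list. Among all tested genes 5.20% separated with higher and 6.38% with lower db/db values.

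All 40 genes of leucine sensing and mTORC1, the kinase complex that lysosomal amino acids switch on, were tested. At an unadjusted p of 0.05, 5 were higher and 2 lower, a share near the 19.3% of all tested genes. The median log2 change was 0.05, or 0.02 without db/db 1. Flcn, which encodes folliculin and acts on the Rag GTPases of this pathway, averaged 54.4 ± 2.88 FPKM in db/db and 46.4 ± 3.31 FPKM in wild type (log2 change 0.22, limma adjusted p = 0.129; 0.23 and 0.0515 without db/db 1). Tfeb, the lysosomal transcription factor that mTORC1 holds in the cytoplasm, averaged 1.94 ± 0.120 FPKM in db/db and 1.51 ± 0.223 FPKM in wild type (log2 change 0.23, adjusted p = 0.167; 0.21 and 0.128 without db/db 1). The genes that passed without db/db 1 numbered 4 among the other transporters, 2 in the amino acid response, 2 in cystine and glutathione use and 2 in leucine sensing, where 10.6% of all tested genes passed in either direction.

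**Figure D4:**
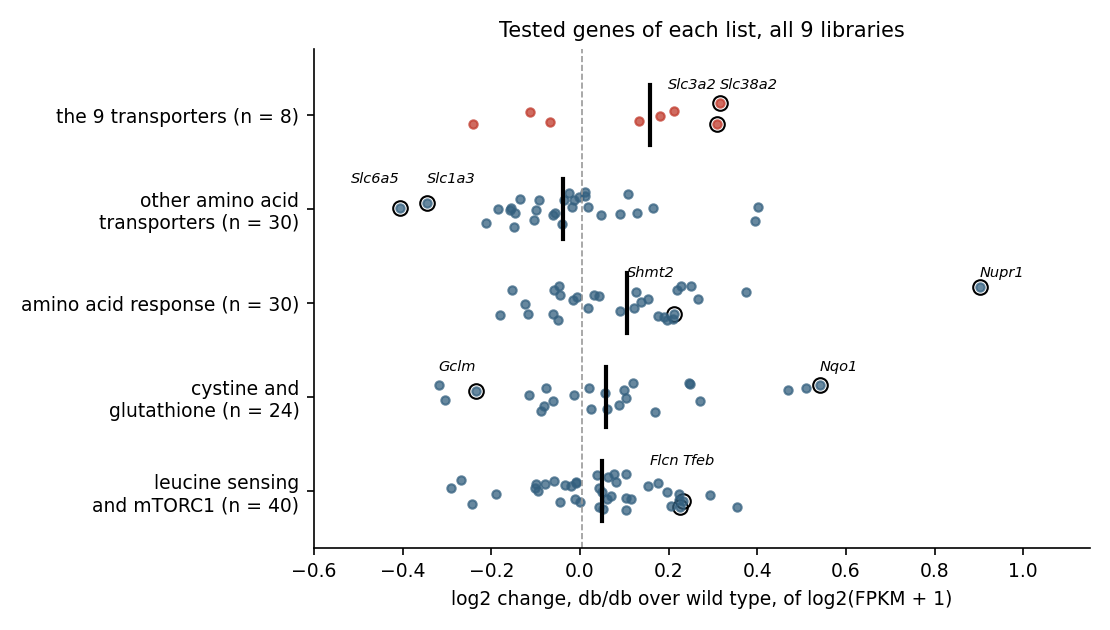
Each point is a tested gene, placed by its log2 change (db/db over wild type, all 9 libraries), with the transporters in red and 4 other lists in blue. Black bars are the list medians (0.16 for the transporters, then -0.04, 0.11, 0.06 and 0.05 down the page), and the dashed line is the median of all tested genes. Ringed and named are the 2 genes of each list with the smallest p.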

How the data were processed

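Retinal RNA was isolated with a column kit and made into SMARTER libraries, per the labels' protocols. The authors deposited 1 table of gene FPKM for 9 samples. Per the submitters' processing notes the genome build is mm10, and no source used here gives the aligner, counter, annotation or strand. Columns named Control and DR were matched to wild-type and db/db samples by their numbers, an inference from the names. Symbols came from GENCODE M21 for 34499 of 35397 identifiers, and 2 listed symbols were matched through RefSeq synonyms.

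FPKM times union exon length moved in steps per library, with at least 99.0% of low values whole within 0.1 read. Most whole values were even, 63.6 to 66.8% of them per library, and 2 such reads may stand for 1 fragment. Values were tested as log2(FPKM + 1), which understates the change of low genes. The 14588 genes whose mean reached 1 FPKM entered limma 3.58.1 in R 4.3.3 (eBayes with trend, no covariate), with Benjamini-Hochberg adjustment over all of them. The steps were tested on simulated data. The GC correction subtracted, per library, the median deviation in 20 bins of transcript GC content.

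The members and lists were chosen with earlier results of these data known. Beside the 9 members, the rule named from each list up to 4 genes that passed, or its 2 genes of lowest p where none did, the 2 protein-coding genes most correlated with each tested member, and Bcat1. Alternatives were another pseudocount, other filters, eBayes without trend or robust, 3 scalings, the replicate number as a block, array weights, libraries left out, the GC correction and limma-voom on recovered reads. The transcript length was added after seeing the data. Figures were drawn with matplotlib 3.10.9.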

Additional observations from a re-analysis of the deposited data

Results flagged for a closer look

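Slc38a1 in db/db 1 stood at 9.71 FPKM, far from the other 3 db/db libraries, which held 15.3 to 16.1 FPKM. The gap was 0.881 of the whole range of the group, above Dixon's critical value of 0.829 for 4 samples. Of 18 groups examined, the 9 members in each genotype, this was the 1 found, and chance gives about 1 in 20. The same library held the highest Slc3a2 of all (55.6 FPKM), the highest pigment epithelium sum (422 FPKM) and the highest muscle sum (138 FPKM). Its part in the low Slc38a1 was not tested.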

How the results depend on the processing

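With all 9 libraries 0 members passed, and 2810 of all tested genes had an unadjusted p under 0.05. Leaving out 1 library at a time gave 0 to 3 members higher and 0 lower in db/db, with 3 only without db/db 1. Array weights gave 3, both db/db 1 and db/db 4 left out gave 1 (Slc3a2), and the GC correction with db/db 1 left out gave 2. Over all tested genes these settings called 8.27%, 3.72% and 4.85%, and leaving out db/db 1 alone 10.6%, which are also the shares to set beside the counts in the lists. Every other setting tried gave 0. In the lists, leaving out 1 library gave 0 to 4 other transporter genes and 0 to 2 in each of the other 3 lists. Array weights gave 2 in each of the 4 lists. Without db/db 1 and db/db 4 there were 3 other transporters, 1 amino acid response gene and 1 leucine sensing gene. The GC correction with db/db 1 left out gave 4, 2, 1 and 2 in the order of the lists in the text. No tested member turned its sign in any of its alternatives. With the longest transcript as the length, the mean levels of Slc3a2, Slc7a8, Slc7a6, Slc7a11, Slc38a1, Slc38a2 and Slc1a5 moved by more than their SD. The deviations of same-numbered libraries from their group means had correlations of 0.0434, 0.0455, -0.18 and 0.134 over genes. These values cannot show whether the numbers pair the samples, and the labels do not state a pairing. With the replicate block 0 members passed, and the adjusted p of Slc3a2 and Slc38a2 was 0.441. At 60 to 176 reads in db/db libraries, counting limits Slc7a10 the most.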
